A study of Mus musculus with 24 samples.

Results

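The response to lactogenic hormones of HC11 mammary epithelial cells transfected with the siPINC1.0/1.6 siRNAs was read from 5 arrays. Of these arrays, 2 were of cells without hormones (-LH) and 3 of cells with hormones (+LH). They were chosen by their labels alone and are 5 of the 24 arrays of the series. mPINC is a long noncoding RNA of the mouse mammary gland, and the study asked whether lowering or raising it changes lactogenic differentiation. The siPINC1.0/1.6 siRNAs are directed against the splice forms mPINC1.0 and mPINC1.6, whereas the siPINC siRNAs are directed against all splice forms and siNEG is a negative control siRNA. Each siRNA was used at 10 nM. The siNEG and siPINC cells (5 arrays each, again 2 -LH and 3 +LH) serve as comparisons for the same hormone contrast, and the lentivirus arrays of the series were used only in the joint normalization. HC11 is a clonal epithelial line that traces back to the mammary gland of a mid-pregnant Balb/c mouse, so all groups share 1 line and contain none of the stroma of a gland. In the +LH groups, the medium held hydrocortisone, insulin and prolactin. Insulin is also part of the growth medium. Growth medium further contains calf serum and epidermal growth factor (EGF), and the medium that precedes hormones has stripped horse serum and no EGF. How long the cells of the arrays received hormones, and in which of these media the -LH cells were harvested, are not given in the sources used here. Nor is the time from siRNA transfection to harvest given for the +LH arrays. Hormones, EGF withdrawal, the change of serum and any difference in time since transfection therefore cannot be told apart in any +LH to -LH difference.

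Lactogenic differentiation is the step in which mammary alveolar cells begin to make milk. Prolactin binds its receptor, activates the kinase JAK2 and, through it, the transcription factor STAT5, which enters the nucleus and switches on milk protein genes. Glucocorticoids such as hydrocortisone act through the glucocorticoid receptor, which cooperates with STAT5 on the beta-casein promoter, and insulin supports protein and lipid synthesis. HC11 cells produce beta-casein only after they become confluent and meet these hormones.

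Each array reports fluorescence of 55681 probes, given here as log2 signal after quantile normalization, so that 1 unit is a doubling. Between 24261 and 29055 probes per array were well above background in the 5 siPINC1.0/1.6 arrays, and replicates correlated at r between 0.9748 and 0.9902 across probes. A gene was called changed at an adjusted p under 0.05 by limma. The lowest signal well above background lay between 3.72 and 4.97 in these 5 arrays, and where a gene was well above background on no array of a group, a fold is given as a lower bound against that limit. A difference between responses that involves such a group rests in part on signals below background, and its size is then not a measured quantity. All 6 -LH siRNA arrays and 1 siNEG +LH array were on 1 slide, and the other 8 +LH siRNA arrays on another. For siPINC1.0/1.6 cells slide and hormones thus coincide, and they can be separated only through the siNEG +LH arrays, which lie on both. Epithelial markers were well above background on all 5 siPINC1.0/1.6 arrays, among them Krt8, Krt18, Krt7, Cdh1, Epcam, Krt5, Krt14 and Trp63, whereas Krt19 was on none. Of 13 measured markers of blood, endothelial and fat cells, 6 were dim on all 5 arrays, including Adipoq, Lep, Plin1 and Cdh5. Cd3e, Csf1r, Itgam, Kdr and Pecam1 were well above background in all arrays of 1 or both siPINC1.0/1.6 groups, and of the 13 Itgam alone was called (0.54 higher with hormones, not called with the slide term). In such bulk RNA, fewer cells of a type and less RNA per cell cannot be told apart.

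The targeted RNA was read by 1 probe, annotated as Pinc, and which splice forms it detects is not known here. Its signal was 6.27 and 6.39 in the siPINC1.0/1.6 -LH arrays, against 7.41 and 7.48 in the siNEG -LH arrays. After hormones it was 5.25, 5.11 and 4.83 in siPINC1.0/1.6 cells, where 2 of 3 arrays were well above background, and 4.96, 4.93 and 4.72 in siNEG cells. The siNEG value of 4.96 lies under 5.05, the lowest signal well above background on its array. Signals near background in both +LH groups limit how well the size of the falls is measured. Knockdown arrays were thus lower than control arrays before hormones, whereas the +LH arrays of the 2 groups overlapped. The signal was 2.41-fold lower with than without hormones in siPINC1.0/1.6 cells (adjusted p = 0.00028). This fall was smaller than in siNEG cells by a fitted 1.31 on the log2 scale (adjusted p = 0.022). That difference was lost in 6 of 10 fits that left out 1 array, with adjusted p up to 0.076.

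Between the +LH and -LH arrays of siPINC1.0/1.6 cells, 16620 of 55681 probes (29.8%) were called changed, 7889 upward and 8731 downward. Counted as genes, with 1 probe each, 4403 of 20167 (21.8%) rose and 4415 (21.9%) fell, of which 1588 and 1656 passed 2-fold. In siNEG cells the same contrast gave 15115 probes (27.1%), with 21.3% of genes higher and 19.6% lower. With slide as a term in the fit, 16.8% of genes were called higher and 15% lower in siPINC1.0/1.6 cells. Within the first slide alone, siNEG +LH replicate 1 against the 2 siNEG -LH arrays gave 13406 probes, with the lone +LH array taken to vary like the other groups. Fitted on these 3 arrays alone, limma called 0 probes, with 17743 at an unadjusted p under 0.05.

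**Figure D1:**
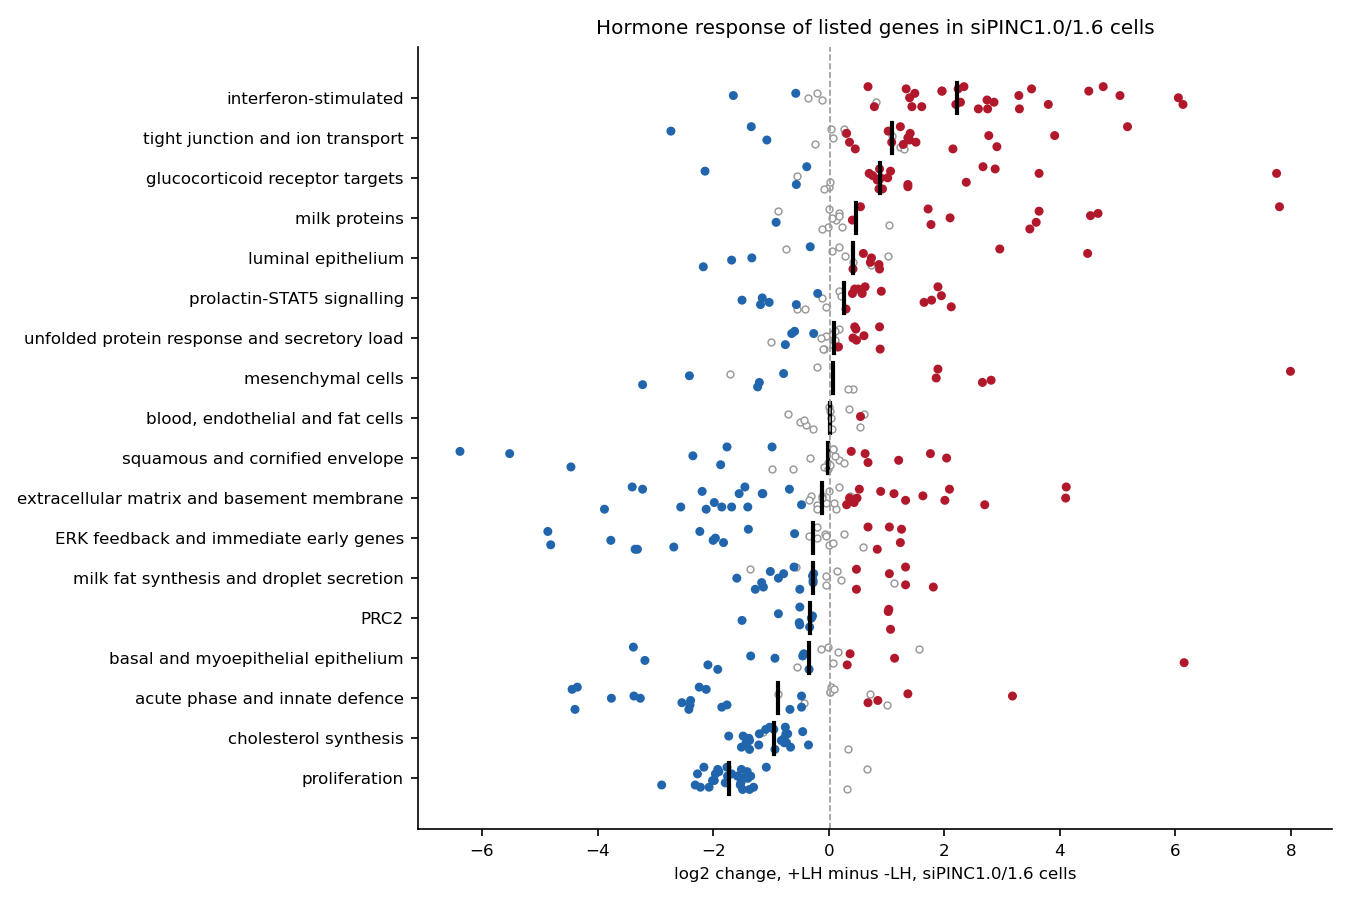
Log2 change (+LH minus -LH) of every measured gene of 18 lists in siPINC1.0/1.6 cells, 1 point per gene. Filled points passed an adjusted p under 0.05 (red higher, blue lower), open points did not, black bars are list medians, and the dashed line is the median of all genes at 0.02. The interferon-stimulated list lies furthest right, with a median of 2.22, and the proliferation list furthest left, with a median of -1.72.

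Among milk proteins, 11 of 22 genes rose and 1 fell, beside 21.8% and 21.9% of all genes. Beta-casein, Csn2, was not above background without hormones (1.95 and 1.95) and reached 9.69, 9.48 and 10.06 with them. That is a rise of at least 44.4-fold (adjusted p = 3.3e-10). In siNEG cells Csn2 went from 1.97 on both arrays to 10.98, 10.76 and 11.08, at least 114-fold. All 3 siNEG +LH arrays thus ended above the 3 siPINC1.0/1.6 +LH arrays. The fit called the response smaller in siPINC1.0/1.6 cells (adjusted p = 0.019), a call that was lost without any 1 of the 4 -LH arrays involved and that rests on -LH signals below background with both siRNAs. Kappa-casein, Csn3, which caps and stabilizes casein micelles, showed the opposite difference. It started at 4.74 and 4.91 in siPINC1.0/1.6 cells but at 6.96 and 6.35 in siNEG cells, and ended between 9.29 and 9.65 in both. Its rise was 23.1-fold in siPINC1.0/1.6 cells and exceeded that in siNEG cells by 1.65 (adjusted p = 0.0032).

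Other secreted proteins of milk rose as well. Pip, prolactin-induced protein, was 11.48 and 11.52 without and 16.19, 16.15 and 16.14 with hormones, a 25.2-fold rise that did not differ detectably from that in siNEG cells (difference 0.06 ± 0.08 SE, adjusted p = 0.86). Wfdc18, a small secreted protein of the whey acidic protein family, rose from 14.68 and 14.89 to between 18.38 and 18.46, or 12.5-fold. It began about 1 unit lower than in siNEG cells and ended at a similar level, and its response was larger by 1.03 (adjusted p = 0.00052). Lactoferrin, Ltf, rose 4.28-fold (adjusted p = 1.9e-07), and osteopontin, Spp1, and the milk fat globule protein Mfge8 rose 3.42-fold and 3.3-fold. Csn1s1 rose at least 3.61-fold, with a fitted log2 change between 2.78 and 4.18 when 1 array was left out. Csn1s2b rose at least 4.26-fold, with replicate 3 (8.03) apart from replicates 1 and 2 (5.35 and 5.69), and its call was lost in the methods' t-test and in a fit of these 5 arrays alone. Whey acidic protein, Wap, was well above background on no array of either siRNA.

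Lcn2, an iron-scavenging protein of innate defence and milk, was not called. Its signal was 13.32 and 13.36 before and 13.44, 13.47 and 13.60 after hormones in siPINC1.0/1.6 cells (change 0.17 ± 0.13 SE, adjusted p = 0.42). In siNEG cells it started lower, at 12.50 and 12.00, and rose to 14.08, 13.95 and 14.12. The responses differed by -1.64 (adjusted p = 0.001). Clu and Mal, which encode the chaperone clusterin and a protein of apical membrane transport, also rose less than in siNEG cells (0.55 against 1.20 and 0.41 against 1.04, log2 changes). In this list the difference from siNEG cells was called higher for 2 genes and lower for 4, beside 4.15% and 2.01% of all genes.

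**Figure D2:**
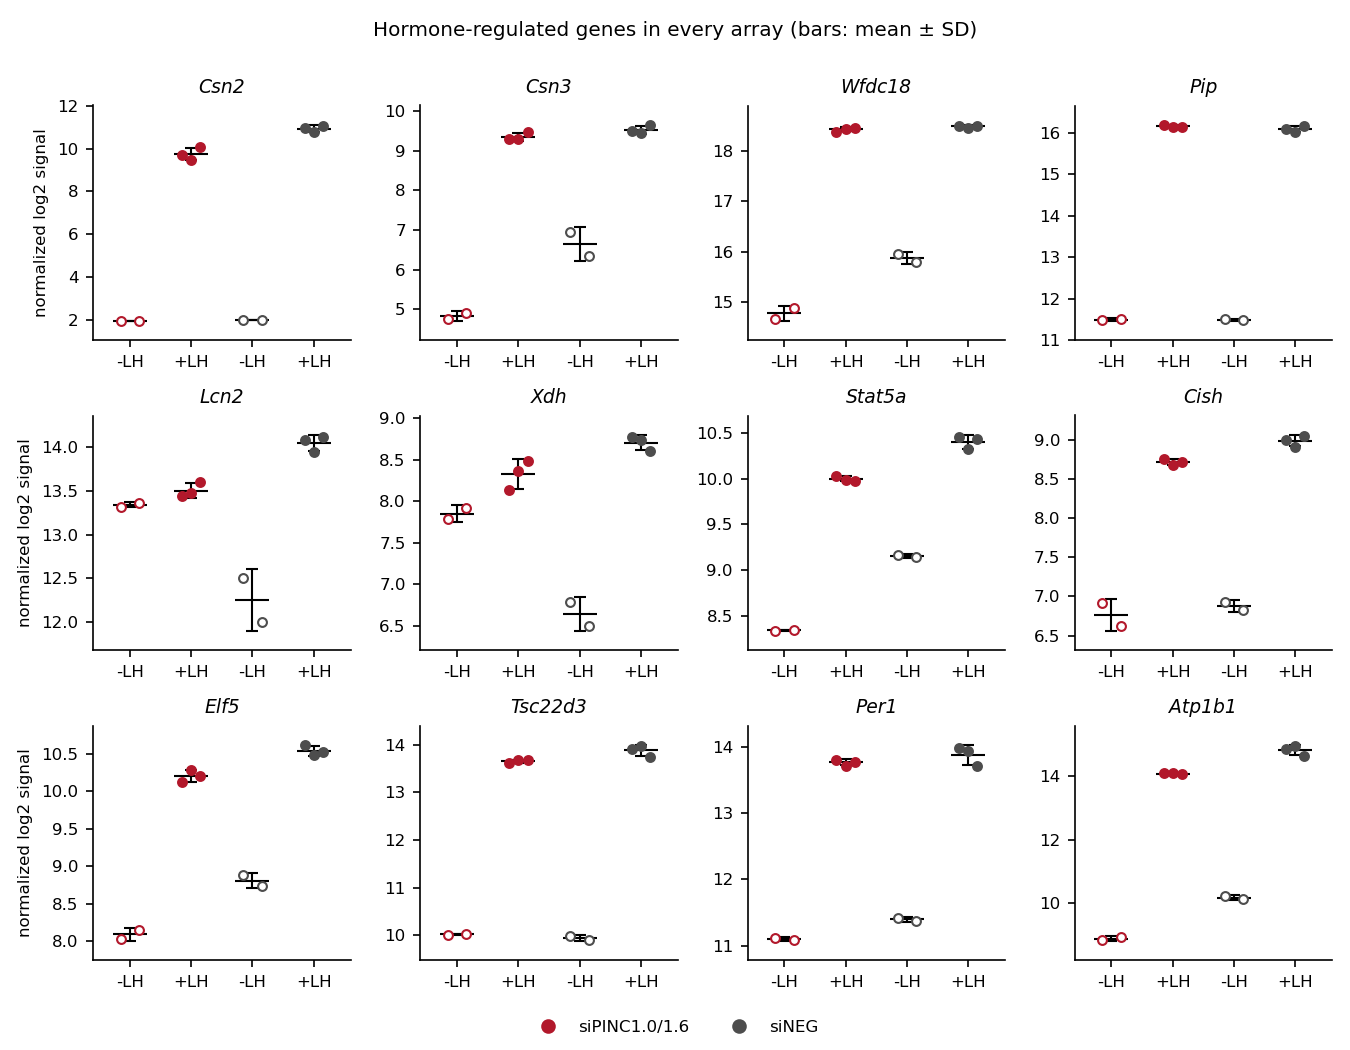
Normalized log2 signal of 12 genes, 1 point per array, in siPINC1.0/1.6 (red) and siNEG (grey) cells without (open) and with (filled) hormones. Horizontal bars are group means and error bars SD (n = 2 for -LH, n = 3 for +LH), and each panel has its own scale. Pip ended at the same level with both siRNAs, Csn2 ended lower in siPINC1.0/1.6 cells, and Lcn2 and Xdh started higher there.

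The promoters of casein-type genes are classic targets of STAT5. Those of Csn2, Pip and Cish are shown because these clear responders of the milk and prolactin lists also held the letters marked. Clear responders without the letters are not shown. Capitals mark matches to the letters TTCNNNGAA (a GAS element, the kind of site STAT proteins recognize), which reads the same on both strands and was searched from 250 bases before to 50 after each start site in RefSeq sequence, build GRCm38.p6. Csn2 (chr5:87699376-87699675, minus strand) held 1 match, which starts 93 bases before the start site. Pip (chr6:41847299-41847598, plus strand) held 2, starting 140 and 42 bases before it, and Cish (chr9:107296409-107296708, plus strand) held 2 that start at or after it.
Csn2: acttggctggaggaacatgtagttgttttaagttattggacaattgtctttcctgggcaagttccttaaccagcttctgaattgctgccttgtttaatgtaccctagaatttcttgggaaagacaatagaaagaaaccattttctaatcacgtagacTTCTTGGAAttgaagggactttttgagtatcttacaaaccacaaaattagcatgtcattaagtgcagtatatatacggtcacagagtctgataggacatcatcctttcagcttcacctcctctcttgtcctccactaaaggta
Pip: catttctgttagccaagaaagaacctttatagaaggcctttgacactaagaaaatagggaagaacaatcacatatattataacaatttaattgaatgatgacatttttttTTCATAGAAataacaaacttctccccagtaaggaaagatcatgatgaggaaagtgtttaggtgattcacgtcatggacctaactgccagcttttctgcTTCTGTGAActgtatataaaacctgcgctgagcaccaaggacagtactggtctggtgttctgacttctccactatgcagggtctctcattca
Cish: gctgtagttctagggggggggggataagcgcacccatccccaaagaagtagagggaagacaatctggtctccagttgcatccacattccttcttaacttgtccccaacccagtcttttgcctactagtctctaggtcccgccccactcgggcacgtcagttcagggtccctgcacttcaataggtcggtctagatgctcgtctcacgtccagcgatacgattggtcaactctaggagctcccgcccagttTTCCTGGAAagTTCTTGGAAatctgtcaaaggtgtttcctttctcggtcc
The motif was found in 5 of 19 promoters of milk protein genes (26.3%), those of Csn1s1, Csn1s2a, Csn2, Glycam1 and Pip. It was in 3 of 32 of the prolactin list (9.38%), those of Cish, Prlr and Socs3, and in 8.3% of all 32851 promoters. Prlr changed little and Socs3 fell. Csn3, Wfdc18, Elf5, Id2 and Stat5a rose and were not among the genes found with the letters. Whether the letters go with a response was not tested. Glycam1 and Csn1s2a held the letters and were above background on none of the 5 arrays. A gene can have several promoters in this set, and 17 of 22 milk protein genes and 21 of 24 genes of the prolactin list had at least 1.

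Of 24 genes of prolactin and STAT5 signalling, 12 rose and 6 fell, beside 21.8% and 21.9% of all genes. With the slide term 9 rose and 4 fell, beside 16.8% and 15% of all genes. Stat5a, the milk-activating STAT, was 8.34 and 8.35 before and 10.03, 9.99 and 9.98 after hormones, a 3.14-fold rise (adjusted p = 8.9e-09). Cish, the feedback inhibitor of cytokine receptors that STAT5 induces, went from 6.91 and 6.62 to 8.75, 8.68 and 8.72, or 3.86-fold. Elf5, the transcription factor of alveolar cells, rose from 8.03 and 8.15 to 10.13, 10.29 and 10.21, or 4.35-fold. None of these 3 genes had overlapping groups, as was true of 12587 of all 20167 genes. The growth hormone receptor Ghr (3.43-fold) and the helix-loop-helix inhibitor Id2 (3.71-fold), which is needed for alveolar development, rose as well, and the kinase gene Jak2 rose 1.49-fold. The prolactin receptor gene Prlr changed little (1.23-fold, adjusted p = 0.013), and its call was lost with the slide term. Ccnd1, which encodes cyclin D1, fell 2.83-fold, the cytokine inhibitor Socs3 fell 2.21-fold, and Cebpb and Wnt4, both factors of alveolar growth, fell by 1.18 and 1.03 (log2). For 3 genes of the list, Socs3, Ccnd1 and Stat5a, the response was called higher than in siNEG cells, and for none lower, beside 4.15% and 2.01% of all genes. The difference was 0.55 for Ccnd1 (adjusted p = 0.0019).

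Most glucocorticoid receptor targets rose. Of 24, 17 rose and 3 fell in siPINC1.0/1.6 cells, beside 16 and 3 in siNEG cells. Shares of all genes were 21.8% and 21.9% in siPINC1.0/1.6 cells. With the slide term 17 rose and 1 fell there, beside 16.8% and 15% of all genes. Tsc22d3 (GILZ), a glucocorticoid-induced leucine zipper protein, stood at 10.01 and 10.02 and rose to 13.62, 13.67 and 13.67, or 12.4-fold (adjusted p = 2.3e-10). The clock gene Per1 rose 6.37-fold from 11.12 and 11.08 to 13.81, 13.72 and 13.78. Replicates of both genes differed by less than 0.1 while the groups lay over 2 units apart. The zinc finger gene Zbtb16 rose 7.38-fold, Fkbp5, a chaperone that restrains the receptor, rose 5.22-fold, and the sulfotransferase gene Sult1a1, not above background without hormones, rose at least 50.3-fold. Cdkn1c, a cell cycle inhibitor, fell 4.4-fold. The response was higher than in siNEG cells for 3 genes and lower for 3, beside 4.15% and 2.01% of all genes. Hsd11b1, which regenerates active glucocorticoid, rose 2.1-fold in siPINC1.0/1.6 cells, where it started lower (10.18 and 10.29 against 11.20 and 11.13), with a change of 0.09 in siNEG cells (adjusted p = 0.3). Angptl4, an inhibitor of lipoprotein lipase, fell by 0.38, against 1.59 in siNEG cells, and the smaller fall was lost with the slide term. Nfkbia and Cebpd, an inhibitor of NF-kappaB and a transcription factor of the acute phase, rose by 0.90 and 0.88, less than in siNEG cells by 0.76 and 0.74. The response of Fkbp5 was also called lower than in siNEG cells.

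Lipid genes moved in both directions, and sterol genes in 1. In siPINC1.0/1.6 cells 23 of 25 genes of the cholesterol synthesis list fell and none rose, with a median change of -0.95, beside 23 lower and 1 higher in siNEG cells (median -0.80). With the slide term 20 fell and none rose in siPINC1.0/1.6 cells. The share of all genes that fell was 21.9%, or 15% with the slide term. Idi1, an enzyme of isoprenoid synthesis, dropped from 12.75 and 12.74 to 10.92, 11.07 and 11.06, or 3.32-fold (adjusted p = 8.4e-08). Cyp51 and Mvd, enzymes of the same route, fell 2.86-fold and 2.78-fold. The call of Insig1, which holds back sterol sensing, was lost with the slide term (change -0.96, adjusted p = 0.14). None of these 4 genes was called different between the siRNAs. Of 26 genes of milk fat synthesis and droplet secretion, 6 rose and 13 fell, or 3 and 9 with the slide term. Shares of all genes were 21.8% and 21.9%, or 16.8% and 15% with the slide term. Lpin1, a phosphatidate phosphatase, rose 3.51-fold, the lipogenic regulator Srebf1 rose 2.06-fold and Cidea, which enlarges lipid droplets, rose 2.51-fold, whereas Dgat2 and Scd1, enzymes of triglyceride and fatty acid synthesis, fell 3.01-fold and 2.19-fold. Xanthine dehydrogenase, Xdh, a structural part of the milk fat globule, rose in siNEG cells from 6.79 and 6.50 to 8.77, 8.74 and 8.60. In siPINC1.0/1.6 cells it began higher, at 7.78 and 7.92, and reached 8.13, 8.36 and 8.48. The response was smaller by 1.58 (adjusted p = 0.0017), and its own call in siPINC1.0/1.6 cells (0.48, adjusted p = 0.024) was lost with the slide term and without any 1 of 4 arrays. The droplet coat protein gene Plin2 also differed, by -0.58, and Cidea by 0.91.

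Genes of tight junctions and ion transport, which seal the alveolus and set the composition of milk, rose in 16 of 27 cases and fell in 4 (median 1.1). Shares of all genes were 21.8% and 21.9%. Atp1b1, a sodium pump subunit, rose 35.9-fold from 8.85 and 8.95 to 14.08, 14.09 and 14.05 (adjusted p = 1.7e-10). The junction scaffold Tjp3 rose 7.53-fold and the sodium channel subunit Scnn1a rose 6.81-fold. The claudin gene Cldn8 was not above background without hormones with either siRNA and rose at least 9.35-fold in siPINC1.0/1.6 cells, to 7.39, 7.56 and 7.53, just under the 7.73 to 7.82 of siNEG cells. The water channel Aqp3 fell 6.62-fold and the zinc transporter Slc39a4 fell 2.53-fold, the latter less than in siNEG cells by 0.78. For 2 genes of the list the response was called higher than in siNEG cells, beside 4.15% of all genes. The 1 gene called lower was Cldn8, whose -LH signals are below background with both siRNAs. With the slide term 11 genes of the list rose and 3 fell, beside 16.8% and 15% of all genes.

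Cell cycle genes fell as a block. Of 32 proliferation genes, 30 fell in siPINC1.0/1.6 cells and none rose, with a median change of -1.72, and 29 fell with the slide term. The share of all genes that fell was 21.9%, or 15% with the slide term. Mki67, the proliferation marker, fell from 14.02 and 13.96 to 12.60, 12.64 and 12.61, or 2.59-fold (adjusted p = 2.3e-07). In siNEG cells it fell from 14.13 and 14.00 to 11.89, 11.79 and 11.62. The -LH arrays of the 2 siRNAs overlapped, and all 3 siPINC1.0/1.6 +LH arrays stayed above all 3 siNEG +LH arrays. The fall was smaller in siPINC1.0/1.6 cells by 0.92 (adjusted p = 0.0015), and the same was true of 25 of the 32 genes, with none in the other direction, beside 4.15% of all genes. Top2a, the DNA-untangling topoisomerase, fell by 1.96 against 2.91, and Rrm2, a subunit of ribonucleotide reductase, by 2.01 against 3.28. Mcm5, a part of the replicative helicase, fell by 2.31 against 3.42, and Ccne1 (cyclin E1) by 2.89 against 3.86. The mitotic genes Ccnb2 and Bub1b both differed by 1.13. List medians per array were 12.58 and 12.57 before and 10.68, 10.75 and 10.64 after hormones in siPINC1.0/1.6 cells, and 12.34 and 12.41 before and 9.61, 9.61 and 9.47 after in siNEG cells. The median difference between the siRNAs was 0.15 without and 1.01 with hormones, and 31 of 32 genes were higher in siPINC1.0/1.6 cells in the +LH state.

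**Figure D3:**
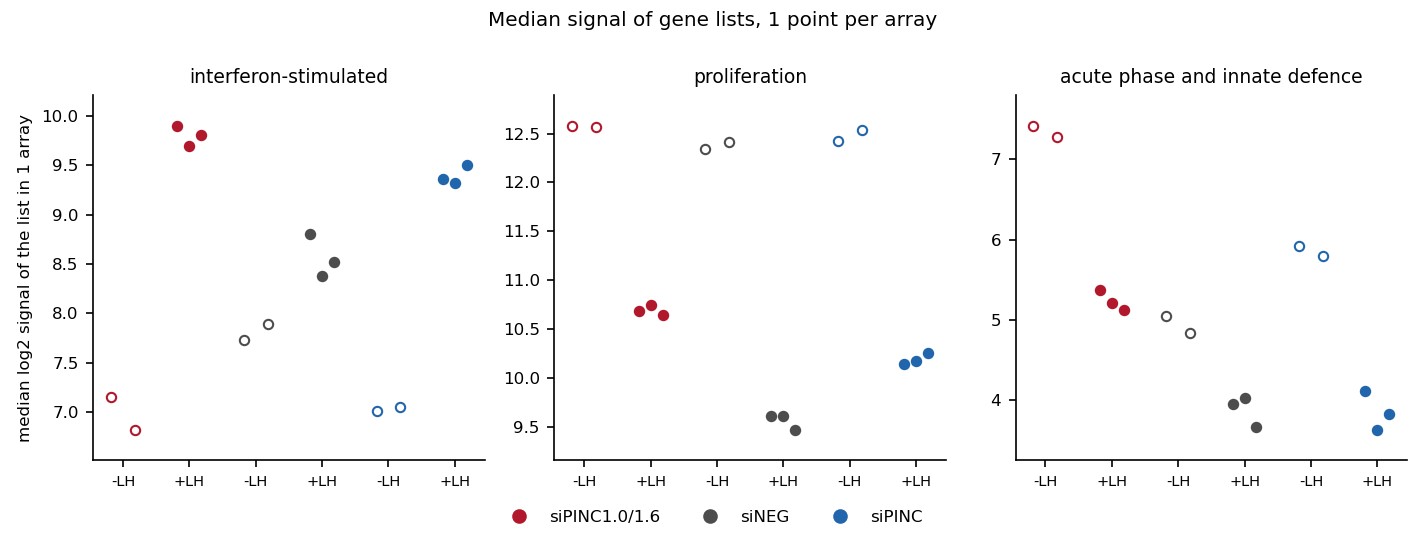
Median log2 signal over the genes of 3 lists in each array, 1 point per array, for siPINC1.0/1.6, siNEG and siPINC cells without (open) and with (filled) hormones. With hormones, proliferation medians lie between 10.64 and 10.75 in siPINC1.0/1.6 cells and between 9.47 and 9.61 in siNEG cells. Interferon-stimulated medians lie between 9.69 and 9.90 and between 8.38 and 8.80.

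The ERK pathway carries the signal of EGF, and of its 26 feedback and immediate early genes 12 fell, 5 rose and 9 were not called. Shares of all genes were 21.9% lower and 21.8% higher. Etv4, an ETS factor induced by ERK, dropped 29-fold from 12.50 and 12.42 to 7.73, 7.59 and 7.48. Fosl1, an AP-1 subunit, fell at least 7.49-fold, to below background on all 3 +LH arrays. The EGF receptor ligand Areg fell by 3.77 and the phosphatase gene Dusp4 by 3.35 (log2). A smaller fall than in siNEG cells was seen for Etv5, another ETS factor (2.00 against 3.72, adjusted p of the difference 0.00012), and for the ERK phosphatase gene Dusp6 (1.82 against 2.75, adjusted p = 0.00012). Egr1, an immediate early factor, rose in siPINC1.0/1.6 cells from 10.83 and 10.92 to 11.69, 11.69 and 11.77, whereas it fell in siNEG cells from 11.57 and 11.59 to 11.23, 11.17 and 11.07. Fos rose by 1.05, more than in siNEG cells by 0.44, and Jun and Phlda1 rose 2.4-fold and 2.36-fold. In this list 5 genes had a higher response than in siNEG cells and none a lower one, beside 4.15% and 2.01% of all genes.

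Markers of luminal and of basal epithelium changed in both directions. The receptor Kit, a marker of luminal progenitors, rose 22.4-fold, from 8.28 and 8.18 to 12.60, 12.72 and 12.83, and the epithelial factor Ehf rose 7.79-fold. Krt8 and Epcam rose 1.84-fold and 1.83-fold. Krt18 rose by 0.60, less than the 1.40 of siNEG cells (adjusted p of the difference 0.0021). The response of Ehf was also called lower than in siNEG cells. The luminal list as a whole had 8 of 19 genes higher and 4 lower, beside 21.8% and 21.9% of all genes. With the slide term 7 were higher and 3 lower, beside 16.8% and 15% of all genes. The surface protein Ly6a fell by 1.33, against 2.33 in siNEG cells, and the integrin Itgb3 by 0.32, against 1.83. The call of the small fall of Itgb3 was lost with the slide term.

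Of 19 basal and myoepithelial genes 4 rose and 9 fell, or 2 and 7 with the slide term. Shares of all genes were 21.8% and 21.9%, or 16.8% and 15% with the slide term. In 7 genes the response was higher than in siNEG cells and in none lower, beside 4.15% and 2.01% of all genes. Krt5 fell 3.79-fold from 16.33 and 16.29 to 14.42, 14.29 and 14.46, while siNEG cells fell from 16.51 and 16.54 to between 13.72 and 13.88. Krt17 fell 10.4-fold and its fall was smaller than in siNEG cells by 0.93. Krt14 fell by 0.43 (adjusted p = 0.014), Trp63, the basal master regulator, by 0.45, and the oxytocin receptor Oxtr by 3.18. Mylk, the myosin light chain kinase, rose 2.2-fold, with a change of -0.02 (log2) in siNEG cells. Krt15, a keratin of basal progenitors, had the largest rise of the list. It was 9.28 and 9.32 without hormones, far below the 12.48 and 12.65 of siNEG cells, and 15.40, 15.45 and 15.49 with them, next to 15.47 to 15.69 in siNEG cells. Its 71-fold rise (adjusted p = 2e-11) exceeded that of siNEG cells by 3.11 (adjusted p = 1.9e-06). Among 25 squamous and cornified envelope genes, 6 rose and 7 fell, shares near the 21.8% and 21.9% of all genes. Sprr1b, a cornified envelope precursor, fell at least 66.8-fold and Sprr2h at least 14.5-fold, Krtdap, a keratinocyte differentiation protein, fell at least 8.64-fold, and the plakin Ppl rose 3.39-fold. Krt6b fell by 1.87, against 3.72 in siNEG cells (adjusted p of the difference 0.00012).

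The 3 largest fitted rises in siPINC1.0/1.6 cells were those of Ogn, Dcn and Omd. Ogn, which encodes osteoglycin, a small leucine-rich proteoglycan, went from 2.18 and 1.88 to 12.51, 12.79 and 12.58, at least 328-fold (adjusted p = 7.5e-12). Omd (osteomodulin) rose at least 143-fold and Dcn (decorin) at least 208-fold. All 3 are proteoglycans of connective tissue. Dcn is also 1 of 14 mesenchymal markers, of which 5 rose and 5 fell, or 5 and 2 with the slide term. Shares of all genes were 21.8% and 21.9%, or 16.8% and 15% with the slide term. Pdgfra and Pdgfrb, receptors typical of fibroblasts, rose 3.7-fold and 3.63-fold, while Snai1, a factor of epithelial-mesenchymal transition, fell 9.31-fold. The mesenchymal marker genes were not examined in single cells, and their part in the rise of matrix genes was not tested. Other genes with the largest rises were Col27a1 (at least 38.5-fold), the protease-like Capn6 (at least 17.8-fold), Cyp2f2 (156-fold), Ptgds, a prostaglandin synthase (124-fold), and Cxcl17, a mucosal chemokine (162-fold, with 1 of 2 -LH arrays above background). Of 42 matrix and basement membrane genes, 14 rose and 16 fell, or 9 and 14 with the slide term, beside the same shares of all genes. Col3a1 rose 17.3-fold, from 6.78 and 6.99 to 11.15, 10.80 and 11.03, and more than in siNEG cells by 2.45 (adjusted p = 0.0011). Col1a1 fell by 1.15, against 2.94 in siNEG cells. Ccn2 and Sparc, matricellular proteins, rose 17.2-fold and 6.5-fold, and Timp1, Tnc and Fn1 fell 10.6-fold, 9.29-fold and 4.34-fold.

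The largest falls included granzymes, growth factors and cytokines. Gzmc fell at least 32.7-fold, from 9.32 and 9.18 to 2.71, 2.42 and 2.11, and Gzme at least 10.3-fold. Granzymes are proteases best known from cytotoxic lymphocytes, whose marker Cd3e was not called. Hhip, the hedgehog-binding inhibitor, fell at least 23.3-fold, Gdnf, a neurotrophic ligand, at least 13.5-fold, the phosphatase gene Dusp9 at least 12.3-fold and the prolactin-family gene Prl2c5 at least 12.7-fold. Prl2c5 had 1 +LH array (4.97) well apart from the other two (1.89 and 2.09), and its call was lost in the fit of these 5 arrays alone. Prkg2, a cGMP-dependent kinase, fell 32.6-fold.

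Interferon-stimulated genes, the antiviral programme of the interferon response, rose together. Of 32 genes, 26 rose and 2 fell in siPINC1.0/1.6 cells (median 2.22), beside 21.8% and 21.9% of all genes. With the slide term 24 rose, beside 16.8% of all genes. In siNEG cells 20 rose and 4 fell without that term (median 0.90). Isg15, a ubiquitin-like protein, was 12.09 and 12.03 without and 14.62, 14.18 and 14.40 with hormones, a 5.05-fold rise (adjusted p = 2.7e-06). In siNEG cells it stood at 12.73 and 12.89 and then at 13.27, 12.52 and 12.92, with overlapping groups (0.10, adjusted p = 0.84). Ifi27l2a rose from 6.73 and 6.76 to 13.07, 12.58 and 12.97 in siPINC1.0/1.6 cells, or 70-fold, against 8.80 and 9.52 to between 11.44 and 12.11 in siNEG cells. The transcription factor Irf7, which amplifies interferon production, rose 22.6-fold, the deconjugating enzyme Usp18 rose 27-fold, and Oas2, which makes the activator of RNase L, rose at least 48.1-fold. Ifit1, Rtp4 and Oas1a rose 9.86-fold, 9.78-fold and 11.4-fold, Ifi44 rose by 5.04 (log2) and Stat2 rose 2.81-fold. Oasl1, which dampens Irf7 translation, fell 3.13-fold.

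For 20 of the 32 genes, among them the smaller fall of Oasl1, the response was higher than in siNEG cells, and for none lower (median difference 1.27), beside 4.15% of all genes. The differences were 3.62 for Ifi27l2a, 2.40 for Irf7 and Usp18, 2.24 for Isg15, 2.19 for Ifit1, 2.06 for Oas1a, 1.55 for the tetherin gene Bst2 and 1.48 for the immunoproteasome subunit Psmb9. Stat2 differed by 0.99 (adjusted p = 0.00059). The siRNAs differed in both states. Without hormones 24 of 32 genes had a lower signal with siPINC1.0/1.6 (median difference -0.41), and with hormones all 32 were higher (median 0.98). Against siPINC cells only Stat2 was called, beside 1.97% of all genes called higher.

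Isg15 and Oas1a are shown because they rose by different folds and both carry repeats of an interferon-type element. Capitals mark matches to GAAANNGAA (ISRE core) on either strand, in RefSeq sequence of build GRCm38.p6 from 250 bases before to 50 after the start site. Isg15 (chr4:156200769-156201068, minus strand) held 3 overlapping matches that start 78, 72 and 66 bases before the start site, and Oas1a (chr5:120907476-120907775, minus strand) held 2 overlapping ones at 20 and 14 bases.
Isg15: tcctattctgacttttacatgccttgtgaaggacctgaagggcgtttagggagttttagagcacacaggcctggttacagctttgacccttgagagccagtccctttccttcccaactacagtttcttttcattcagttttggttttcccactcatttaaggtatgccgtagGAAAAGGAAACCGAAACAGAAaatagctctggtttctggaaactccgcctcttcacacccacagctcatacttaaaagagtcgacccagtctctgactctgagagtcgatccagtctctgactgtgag
Oas1a: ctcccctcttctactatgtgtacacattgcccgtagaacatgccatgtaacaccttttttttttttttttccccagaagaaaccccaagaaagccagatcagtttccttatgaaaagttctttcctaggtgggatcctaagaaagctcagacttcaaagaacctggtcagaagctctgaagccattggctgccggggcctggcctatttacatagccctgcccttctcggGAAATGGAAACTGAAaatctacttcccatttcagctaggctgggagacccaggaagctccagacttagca
The letters were found in 14 of 28 promoters of the interferon list (50%) and in 8.56% of all promoters. Among other lists, ACANNNTGT (GRE) stood in 4 of 28 promoters of glucocorticoid receptor targets (14.3%, all promoters 6.85%), TTTCCCGC (E2F) in 3 of 28 of proliferation genes (10.7%, all promoters 1.07%) and TCACNCCAC (SRE) in 1 of 20 of cholesterol genes (5%, all promoters 1.24%), each on either strand.

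**Figure D4:**
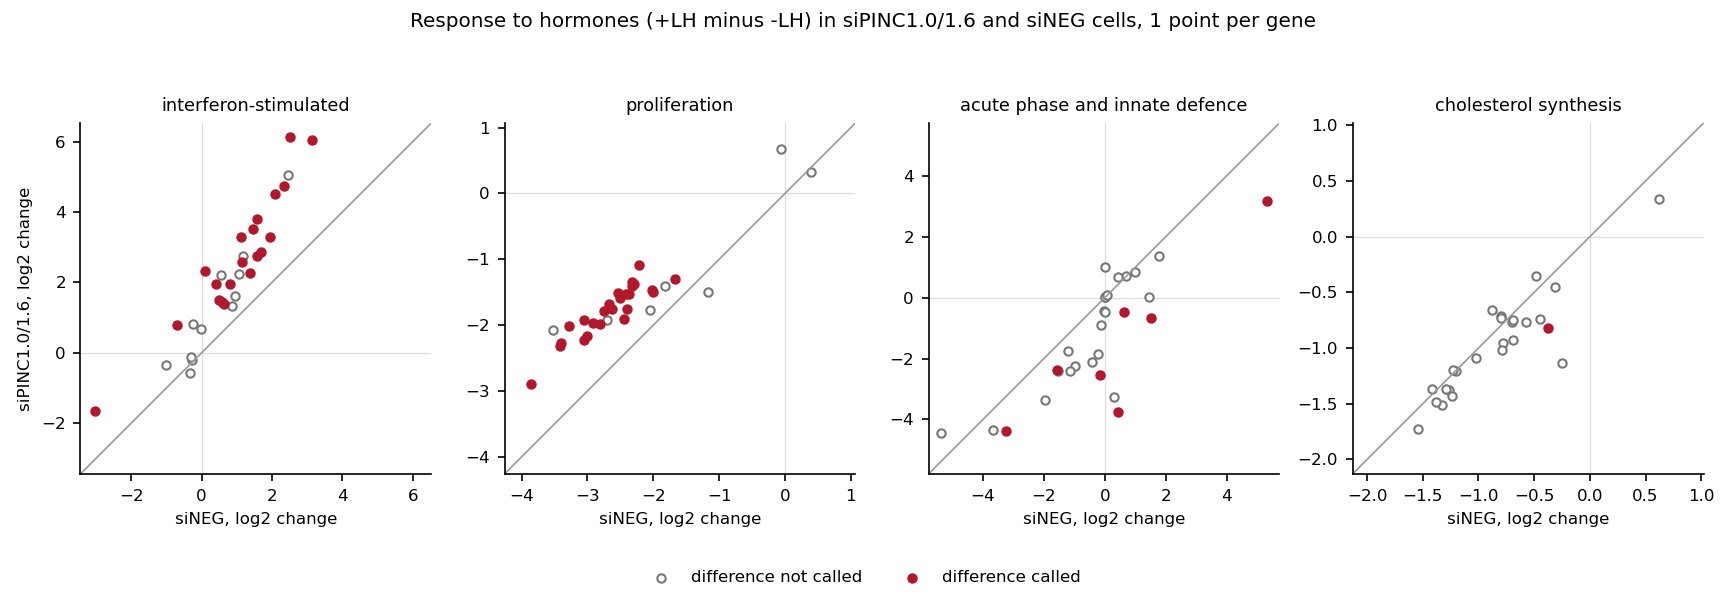
Log2 change with hormones in siPINC1.0/1.6 cells (y) against siNEG cells (x) for the genes of 4 lists, 1 point per gene, with the line of equal change. Red points are genes whose responses differed at an adjusted p under 0.05. In the interferon-stimulated list 20 and in the proliferation list 25 such points lie above the line, in the acute phase list 7 lie below it, and in the cholesterol list 1 does.

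Acute phase and innate defence genes went the other way. Of 29, 17 fell and 4 rose in siPINC1.0/1.6 cells (median -0.88), whereas 8 fell and 6 rose in siNEG cells. Shares of all genes in siPINC1.0/1.6 cells were 21.9% lower and 21.8% higher. With the slide term 13 fell and 3 rose, beside 15% and 16.8% of all genes. Il6 fell from 10.27 and 9.98 to 5.73, 5.81 and 5.51, or 21.7-fold, and the neutrophil chemokine Cxcl5 from 12.54 and 12.36 to 7.85, 8.29 and 8.04, or 21-fold. Acod1, which makes itaconate, fell 20.5-fold. C3, the central complement component, was 14.03 and 13.91 before and 13.27, 13.25 and 13.39 after hormones, while siNEG cells rose from 11.71 and 11.15 to 12.99, 12.94 and 12.89. The responses differed by -2.17 (adjusted p = 0.00027), and the small fall in siPINC1.0/1.6 cells lost its call with the slide term (adjusted p = 0.13). Ccl9 rose 9.09-fold, from 9.13 and 9.15 to 12.25, 12.33 and 12.40, but in siNEG cells it started at 7.11 and 7.03 and met the same end level. Its response differed by -2.16. The chemokine Ccl2 was well above background in the siPINC1.0/1.6 -LH arrays and in no other siPINC1.0/1.6 or siNEG array, and fell at least 1.77-fold. Chil1, a chitinase-like protein, fell by 0.47, where it rose by 0.63 in siNEG cells, and haptoglobin, Hp, rose 2.58-fold. For 7 genes the response was lower than in siNEG cells and for none higher, beside 2.01% of all genes. The median difference between siPINC1.0/1.6 and siNEG cells was 2.02 without hormones and 0.38 with them. Against siPINC cells 7 genes were lower as well, beside 0.927% of all genes.

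PRC2, the complex that places methyl groups on histone H3 lysine 27 and that the study links to mPINC, changed in all 11 measured genes of its subunits and partners. In siPINC1.0/1.6 cells 8 fell and 3 rose, beside 21.9% and 21.8% of all genes. With the slide term 5 fell and 3 rose, beside 15% and 16.8%. Ezh2, the methyltransferase of dividing cells, was 11.52 and 11.49 before and 10.58, 10.71 and 10.61 after hormones, a 1.83-fold fall (adjusted p = 7.3e-07). Ezh1, the alternative methyltransferase, rose 2.1-fold, from 11.69 and 11.67 to 12.72, 12.70 and 12.83. The core subunits Suz12 and Eed and the histone-binding Rbbp7 (RbAp46) fell by 0.51, 0.50 and 0.50. The accessory genes Jarid2 and Phf1 rose 2.06-fold and 2.04-fold, and Phf19 fell 2.83-fold. None of the 11 differed from siNEG cells at an adjusted p under 0.05, beside 4.15% of all genes called higher and 2.01% lower. At such shares a list of 11 genes can tell little about whether the responses differ. For Ezh2 the difference was 0.04 ± 0.08 SE. Of 24 genes of the unfolded protein response and secretory load, 8 rose and 4 fell, or 5 and 3 with the slide term. The shares of all genes were 21.8% and 21.9%, or 16.8% and 15% with the slide term. Called members included Xbp1, which prepares cells for secretion (0.89), Herpud1 (0.88) and Sdf2l1 (-0.75). None of the 24 was called different from siNEG cells, beside 4.15% and 2.01% of all genes called higher and lower.

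The 25 genes that the study names from its arrays and assays gave 13 rises and 11 falls, beside 21.8% and 21.9% of all genes. This list was chosen by the study on these samples and is not independent evidence of a direction. Those not yet described include Igfbp2, a binding protein of insulin-like growth factors, which fell 11.3-fold, Mib2, a ubiquitin ligase of Notch signalling, which rose 2.3-fold, and Cp, ceruloplasmin, which fell 1.88-fold. Ednra, an endothelin receptor, rose 4.01-fold. The Notch regulator Dlk2 rose by 0.76, less than in siNEG cells by 0.96.

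Across all genes, the response to hormones differed between siPINC1.0/1.6 and siNEG cells for 1778 probes (3.19%), and 1460 with the slide term. Of the 1243 genes, 837 had a higher and 406 a lower response. A larger rise accounted for 386, a smaller fall for 321, a larger fall for 156 and a smaller rise for 152. The remaining 130 and 98 genes had fitted responses of opposite sign. Among the 837 genes, 526 (62.8%) showed the larger difference between the siRNAs without hormones rather than with them, and among the 406 genes 322 (79.3%) did. These shares have no all-gene value beside them. Means without hormones rest on 2 arrays per group and those with hormones on 3, so the shares cannot be read as a property of these genes. The share of calls in the upward direction was 65.1% of probes, but 49.6% without siPINC1.0/1.6 -LH replicate 1 and 53.0% without replicate 2.

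The genes with the largest positive differences were often those that began lower in siPINC1.0/1.6 cells. A low siPINC1.0/1.6 -LH signal itself raises this difference. The starting levels are therefore part of what ranked these genes and are no separate result. Pgm5, a phosphoglucomutase-like protein of adherens junctions, was 4.85 and 4.84 before and 11.12, 11.05 and 10.97 after hormones, against 7.69 and 7.66 before and 10.81 to 10.89 after in siNEG cells (difference 3.03, adjusted p = 1.9e-06). Scrg1 began at 8.90 and 9.12, against 11.97 and 11.80, and the groups with hormones lay between 15.30 and 15.64. Megf6 rose 10.6-fold to between 10.26 and 10.43, where siNEG cells moved from 10.04 and 10.26 to between 10.68 and 10.92. Cyp2f2 differed by 2.10. Arc, an activity-regulated immediate early gene, fell by 3.63 in siNEG cells and by 0.55 in siPINC1.0/1.6 cells (8.43 and 8.60 before, 7.97, 7.94 and 7.99 after), and the call of the smaller fall was lost with the slide term and without any 1 of the 5 arrays. Mroh4 fell by 1.18 against 4.17, and Ifit3b, an interferon-stimulated gene outside the list, rose at least 13.9-fold. The response of Krt71 was called different too, but its signals were below background in 2 of the 4 groups, and the call was lost without any 1 of 6 arrays.

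The genes with the largest negative differences were well above background before hormones in siPINC1.0/1.6 cells and mostly dim elsewhere. A high siPINC1.0/1.6 -LH signal itself lowers this difference, so these levels too are part of what ranked the genes. Il1a, the alarmin interleukin 1 alpha, was 6.00 and 5.20 before and between 1.83 and 1.84 after hormones, at least a 2.61-fold fall, and was above background on no siNEG array. Csf3, the granulocyte growth factor, went from 7.60 and 7.20 to 2.56, 2.71 and 2.01, at least 9.05-fold. Mmp10, a stromelysin, fell at least 3.1-fold and Mettl7b at least 2.19-fold, and Serpinb10, Baalc, Il18rap and Aoc1 fell at least 4.62-fold, 1.88-fold, 3.59-fold and 1.88-fold. In total 16 of the genes called with a lower response were well above background on both siPINC1.0/1.6 -LH arrays and on no array of the other 3 groups. Such a pattern itself gives a lower response. The count has no all-gene value beside it and cannot be read as a property of these genes. Edn1, endothelin 1, also began higher but rose with both siRNAs. It was 6.94 and 6.65 before and 8.30, 8.38 and 8.42 after hormones, while siNEG cells went from below background (3.89 on both) to 8.32, 8.31 and 8.37, so that its rise was 2.97-fold in siPINC1.0/1.6 and at least 18.7-fold in siNEG cells. C1s2, a complement protease, was 4.81 and 4.95 before hormones in siPINC1.0/1.6 cells and not above background (1.88 and 1.87) in siNEG cells, and both groups ended between 5.24 and 6.22.

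**Figure D5:**
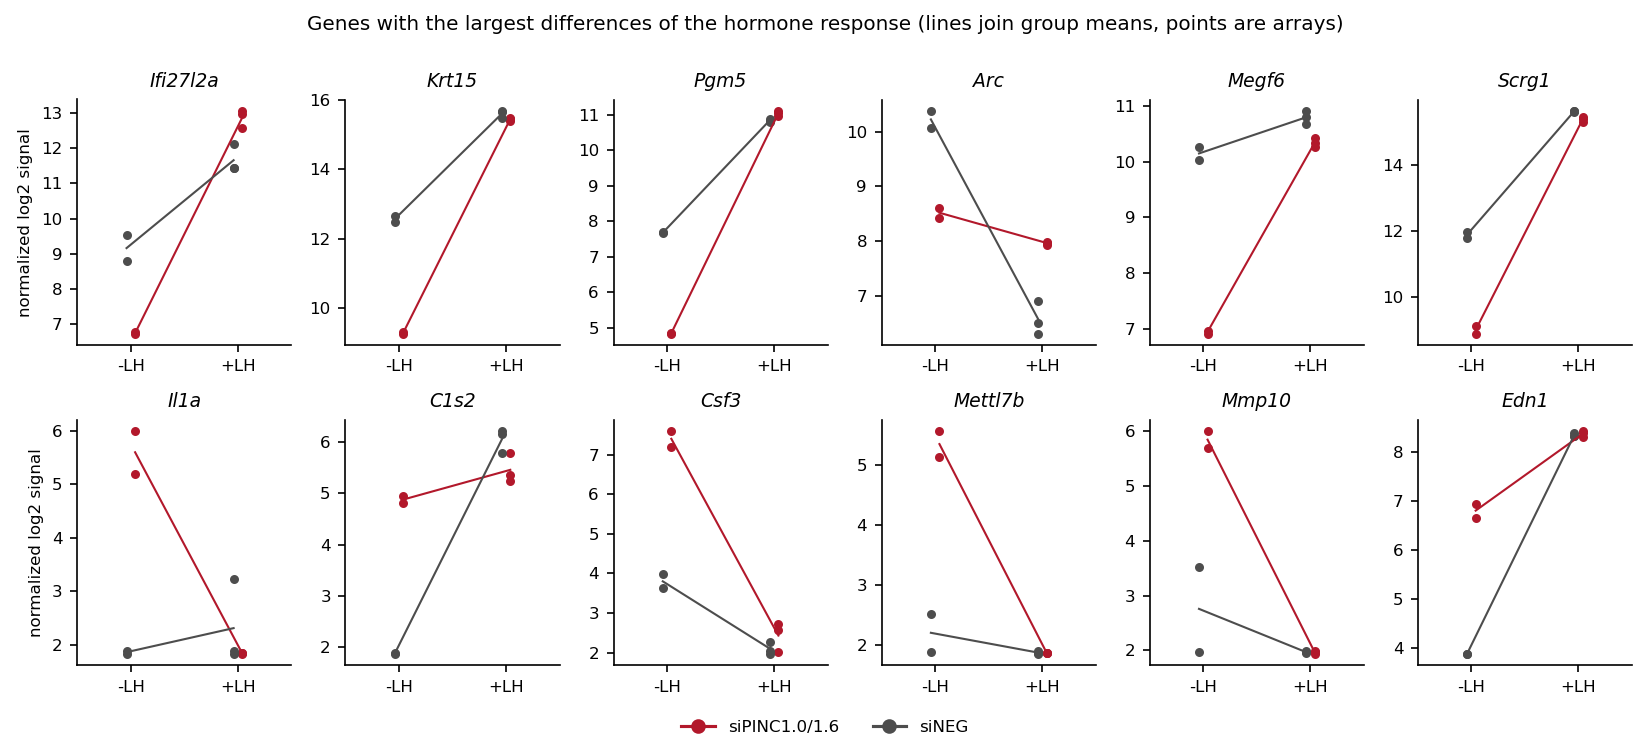
Normalized log2 signal of 12 of the genes whose hormone response differed most between siPINC1.0/1.6 (red) and siNEG (grey) cells, 1 point per array, with lines joining the group means. In the upper row lines of siPINC1.0/1.6 cells start lower and rise more, except Arc, which falls less, and in the lower row Il1a, Csf3, Mettl7b and Mmp10 start higher and fall while C1s2 and Edn1 start higher and rise less.

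Compared with siPINC cells, in which all splice forms are targeted, the response differed for 861 probes (1.55%). This count ranged from 582 to 1210 when 1 array was left out, and the upward share, 66.1% of calls, was 39.3% without siPINC1.0/1.6 -LH replicate 1. Krt15 and Pgm5 were among the genes that differed between these siRNAs too, by 3.33 and 2.91. Pip rose more than in siPINC cells by 1.40 (adjusted p = 4e-05), and Csn2 was called to rise less (adjusted p = 0.012). For proliferation genes 6 of 32 had a higher response than in siPINC cells and none a lower one, beside 1.97% and 0.927% of all genes. The siPINC1.0/1.6 arrays are the same in both comparisons, so these values add no independent measurement of those arrays.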

How the data were processed

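RNA of HC11 cells was labelled with Cy3 and hybridized to 1-colour Agilent mouse arrays. The authors deposited the output of Agilent Feature Extraction 11.0.1.1, in which each of 59305 non-control spots has an intensity already corrected for background (the processed signal), and a series matrix of log2 values whose scale and centring are not stated and which was used as an alternative. From the scanner files, log2 of the processed signal was quantile normalized over all 24 arrays, outlier spots (146 to 644 per array) were left out, and spots of a probe were averaged to 55681 probes. No spot was saturated. Gene symbols came from RefSeq for 26582 probes and from the study's tables for 34, and 29065 probes were unnamed. For counts of genes, the probe with the highest mean stood for a gene. Of 1790 genes with several called probes, 134 were called in both directions, none of them named or listed here.

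Groups were taken from the labels. limma 3.58.1 (R 4.3.3) was fitted to the 15 siRNA arrays with 6 group means, and p-values were adjusted by Benjamini-Hochberg over all probes. Labels and methods give duplicates and triplicates of cultures, and p-values measure the spread between these alone. Their small number limits the precision. Differences between responses were tested as an interaction. With slide as a term, siNEG +LH replicate 1 carries no weight in the difference. Named were the mPINC probe, the 10 largest rises and falls of the response and of its difference from siNEG cells (called, without overlap of the groups, and bright enough in all arrays of 1 or more groups to pass the background test), up to 4 called members of each list per direction with its defining members, and the genes the study names. The members and lists were chosen with earlier results of these data known. Alternatives were another normalization (75th percentile, or siRNA arrays alone), normexp with an offset of 50, the series matrix, a trended robust prior, bright probes only, other sets of arrays, slide as a term, a replicate block, the methods' t-test, each array left out and, added after seeing the data, a slide term in the fit of all 24 arrays. Replicate numbers did not pair the samples. Some results are not reported here.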

Additional observations from a re-analysis of the deposited data

Results flagged for a closer look

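The values below are differences between 2 hormone responses, that in siPINC1.0/1.6 cells minus that in siNEG cells, on the log2 scale. They are listed because limma's test of the difference itself passed an adjusted p of 0.05. Over all probes this held for 1778, and for 861 against siPINC cells. No explanation was weighed. For Dcn, Csn2, Oas2, Ifit3b, Krt71, Cldn8, C1s2, Edn1, Ccl2, Csf3, Il1a, Serpinb10, Baalc, Il18rap, Mettl7b, Mmp10 and Aoc1, at least 1 of the 4 groups was below background on every array. Their values are fitted differences that rest in part on such signals and are no measure of size, and the report gives bounds on their folds instead.

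Higher responses among interferon-stimulated genes were 3.62 for Ifi27l2a, 2.91 for Oas2, 2.87 for Ifit3b, 2.40 for Usp18, 2.40 for Irf7, 2.24 for Isg15, 2.19 for Ifit1, 2.06 for Oas1a, 1.55 for Bst2, 1.48 for Psmb9 and 0.99 for Stat2. Among cell cycle genes they were 1.27 for Rrm2, 1.13 for Ccnb2, 1.13 for Bub1b, 1.11 for Mcm5, 0.97 for Ccne1, 0.95 for Top2a, 0.92 for Mki67 and 0.55 for Ccnd1. The ERK-linked genes Etv5, Egr1, Dusp6 and Fos had values of 1.72, 1.26, 0.93 and 0.44, and Arc had 3.08.

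Keratin and epithelial genes gave 3.63 for Krt71, 3.11 for Krt15, 1.85 for Krt6b, 0.93 for Krt17, 0.80 for Krt5, 1.51 for Itgb3, 1.15 for Mylk and 1.00 for Ly6a, with -0.81 for Krt18 in the other direction. Matrix genes gave 2.45 for Col3a1, 1.79 for Col1a1, 1.01 for Dcn, 0.77 for Sparc and -0.80 for Ccn2. Further large positive values were 3.03 for Pgm5, 2.98 for Mroh4, 2.75 for Megf6, 2.63 for Scrg1 and 2.10 for Cyp2f2. The mPINC probe (Pinc) had 1.31.

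Milk and lipid genes split, with 1.65 for Csn3, 1.03 for Wfdc18 and 0.91 for Cidea, and -1.64 for Lcn2, -1.58 for Xdh, -1.18 for Csn2, -0.65 for Clu, -0.63 for Mal and -0.58 for Plin2. Glucocorticoid receptor targets gave 1.21 for Angptl4, 0.98 for Hsd11b1, -0.74 for Cebpd and -0.76 for Nfkbia. The transport genes Slc39a4 and Cldn8 gave 0.78 and -1.64, and Dlk2 gave -0.96.

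The remaining lower responses were -4.22 for Il1a, -3.60 for C1s2, -3.26 for Csf3, -3.23 for Serpinb10, -3.16 for Baalc, -3.15 for Il18rap, -3.15 for Mettl7b, -3.10 for Mmp10, -2.95 for Aoc1, -2.88 for Edn1, -2.37 for Ccl2, -2.17 for C3, -2.16 for Ccl9 and -1.11 for Chil1.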

How the results depend on the processing

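The hormone response of siPINC1.0/1.6 cells kept its scale, with 16620 probes in the report, 11541 with the slide term, 12441 with that term in all 24 arrays (chosen after seeing the data), 12349 by the methods' t-test and 14779 to 17190 in the other fits, and 14011 to 15890 without 1 array. That t-test gave 8958 probes for siNEG cells. Leaving out 1 array gave 12374 to 15012 probes for siNEG cells, 12946 to 14564 for siPINC cells and 11270 to 12431 for siNEG cells within the first slide. The last count was 13406 in the report and 0 when those 3 arrays were fitted alone by limma (17743 at an unadjusted p, against 17930).

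The difference from siNEG cells gave 1778 probes, but 1145 after 75th percentile scaling, which moved its median over probes from -0.009 to -0.101, 1024 from the series matrix and 1179 with only those groups, and 1404 to 1925 without 1 array. For siPINC cells 861 became 413, 352, 1344 (trended robust prior), 1343 (bright probes), 533 (replicate block) and 1295 (slide term, all 24 arrays), and 582 to 1210 without 1 array. The replicate block gave 15442 and 1318 for the other 2 counts. Replicate numbers are not said to pair cultures, and same-numbered arrays correlated at -0.208 to 0.0733.

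The acute phase count of 7 became 16 (normexp), 12 (series matrix), 11 (trended robust prior), 12 (bright probes), 15 (all 24 arrays) and 12 (slide term, all 24 arrays), and 5 to 9 without 1 array. The mPINC difference was 0.96 in the series matrix, where its call was lost (adjusted p = 0.12), 0.71 with normexp and 1.21 to 1.42 without 1 array. Its response was -0.61 with normexp and -1.36 to -1.15 without 1 array. The response of Krt71 reversed to -0.89 with either slide term, and that of Lcn2 to -0.17 after 75th percentile scaling; the cause was not tested. Of 73 named differences 57 kept their call under every other setting run and 69 under every array left out, as did 143 and 156 of 165 named responses. The t-test was not run for differences or within the first slide, nor were slide, block or leaving out its lone +LH array there. Dim probes limit folds to bounds.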
